A study of Homo sapiens with 45 samples.

Results

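The retinoblastoma protein RB1 and the proteins that switch it off form the gate through which cells pass from the first gap phase into DNA synthesis. The 10 genes followed here belong to that gate: RB1 itself, the D cyclins CCND1, CCND2 and CCND3 with their kinases CDK4 and CDK6, the E cyclins CCNE1 and CCNE2, and the transcription factors E2F1 and E2F3. They were found by matching the Ensembl identifier of each row to its GENCODE symbol. All 10 were present among the 64485 genes of the table, and all 10 were among the 20587 genes that passed the filter on low counts. The RNA came from 15 breast cancer lines of human origin, grown without treatment, and each line gave 3 of the 45 libraries. Ribosomal RNA had been removed from the total RNA. All lines are labelled wild-type and epithelial, so no line carries an engineered change of any of the 10 genes.

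BT-549 and the 7 lines whose names begin with HCC (HCC38, HCC70, HCC1143, HCC1187 and, further, HCC1395, HCC1806 and HCC1937) grew in RPMI 1640. The lines MDA-MB-468, MDA-MB-453, MDA-MB-436, MDA-MB-231 and MDA-MB-157 grew in L-15, BT-20 in EMEM and Hs578T in DMEM. All media held fetal bovine serum, BT-20, BT-549 and MDA-MB-436 also received insulin, and MDA-MB-436 glutathione. Sequencing runs 1 and 2 held MDA-MB-231, Hs578T, HCC38 and HCC1143, while the 11 remaining lines were in runs 3, 4 and 5. The labels do not say whether the 3 libraries of a line came from separate cultures. The p-values between lines therefore measure the spread between these libraries, which may be technical. In such bulk RNA fewer cells with a transcript and less of it per cell cannot be told apart.

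Libraries held 2312138 to 14653677 assigned reads, with a median of 6263573. The epithelial label was checked against EPCAM, CDH1, KRT8, KRT18 and KRT19. Their summed level lay between 6.46 and 324 reads per 1e+06 assigned reads (CPM, scaled for composition) in BT-549, Hs578T, MDA-MB-436, HCC1395 and MDA-MB-157, and at 1076 CPM or more in the other 10 lines. CDH1, the epithelial cadherin, was at 0.421 to 1.52 CPM in the first 5 lines and at 1.07 CPM in MDA-MB-231. Hs578T replicate 2, the library with the fewest reads, was the lowest of its line for 9 of the 10 genes, so values of that line are given with and without it where it matters.

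In resting cells RB1 binds E2F factors and keeps their targets silent. D cyclins, made in response to growth signals, activate CDK4 and CDK6, which begin to phosphorylate RB1, and E cyclins with CDK2 complete the step. Freed E2F factors then turn on the genes of DNA replication, and, among others, the genes for E2F1 and the E cyclins. The inhibitors encoded by CDKN2A and CDKN2B block CDK4 and CDK6, and in breast cancer gain of CCND1 or CCNE1 and loss of RB1 or CDKN2A are recurrent.

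Because E2F factors are known to bind in front of their own genes, the promoters of the members were searched for the words TTTCCCGC, TTTCGCGC, TTTGCCGC and TTTGGCGC on both strands. RefSeq windows of 250 bases before to 50 bases after a start site (GRCh38.p14) were held for 7 of the 10 genes. These were 11 windows in all, and 2 of them held a word. No window was held for CCND1, CCND2 or CCNE2. The only RB1 window, chr13:48476200-48476499, lies inside the gene, so the sequence before the RB1 start at 48303726 was not searched. Of all 35116 windows, 3.31% held one. The words stand in capitals in the windows below, which are shown because they belong to the 2 E2F members and to CCNE1, a cyclin gene that E2F is known to drive. The E2F1 window is chr20:33686336-33686635 on the minus strand, with words that begin 33 and 20 bases before the start. The E2F3 window shown is chr6:20401629-20401928 on the plus strand, with a word that begins 53 bases before the start. The window of another E2F3 start, chr6:20403364-20403663, held none. The CCNE1 window is chr19:29811741-29812040 on the plus strand and holds none of these letters in this order.
E2F1: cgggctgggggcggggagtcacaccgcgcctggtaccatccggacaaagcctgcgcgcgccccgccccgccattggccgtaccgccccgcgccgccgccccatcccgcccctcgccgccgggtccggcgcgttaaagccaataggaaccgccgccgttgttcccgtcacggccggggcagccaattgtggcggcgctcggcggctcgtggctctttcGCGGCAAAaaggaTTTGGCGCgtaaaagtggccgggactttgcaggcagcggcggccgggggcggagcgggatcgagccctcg
E2F3: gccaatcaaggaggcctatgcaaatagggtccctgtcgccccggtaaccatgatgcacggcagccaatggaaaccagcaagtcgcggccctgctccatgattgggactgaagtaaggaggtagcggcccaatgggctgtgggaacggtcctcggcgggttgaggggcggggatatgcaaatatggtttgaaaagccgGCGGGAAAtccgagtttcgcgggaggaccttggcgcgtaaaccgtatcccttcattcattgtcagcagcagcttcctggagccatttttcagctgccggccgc
CCNE1: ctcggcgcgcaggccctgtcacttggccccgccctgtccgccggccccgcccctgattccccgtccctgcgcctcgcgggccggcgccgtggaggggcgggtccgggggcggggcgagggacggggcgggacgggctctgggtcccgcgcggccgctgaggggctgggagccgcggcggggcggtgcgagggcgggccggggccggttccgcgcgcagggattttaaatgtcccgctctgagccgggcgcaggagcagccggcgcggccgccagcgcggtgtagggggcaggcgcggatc

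All 10 genes differed among the 15 lines, with edgeR adjusted p from 6.31e-34 for CCND1 to 3.23e-17 for E2F3. So did 98.2% of all genes tested, so a difference among lines as such is the rule in these data. The width of the differences set the members apart from each other. The standard deviation (SD) of the line means on the log2 scale was 1.82 for RB1, 1.78 for CCND2, 1.65 for CCND1 and 1.65 for CDK6. It was 1.03 for CCNE1, 1.0 for CCNE2, 0.87 for E2F1, 0.68 for E2F3, 0.65 for CDK4 and 0.63 for CCND3. The median was 1.01 over the 10 members and 0.78 over all genes tested. RB1, CCND2, CDK6 and CCND1 varied more than 91.9%, 91.3%, 89.4% and 89.2% of the genes tested, whereas E2F3, CDK4 and CCND3 varied more than 35.7%, 31.1% and 27.4%.

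For each line the test set its level against the average of the remaining 14, and a gene was called higher or lower at an adjusted p under 0.05 and a change of at least 2-fold (1 on the log2 scale). Of 150 tests of a member in a line, 24 (16%) were called higher and 20 (13.3%) lower. Over all genes tested, 16.2% of such tests were called higher and 12.5% lower, so the members were called about as often as any gene. HCC1143 held the most members called higher, namely CCND1, CDK4, CDK6 and E2F1. In MDA-MB-157, MDA-MB-436 and MDA-MB-453, 3 members were called lower. CCND3 was called in no line.

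**Figure D1:**
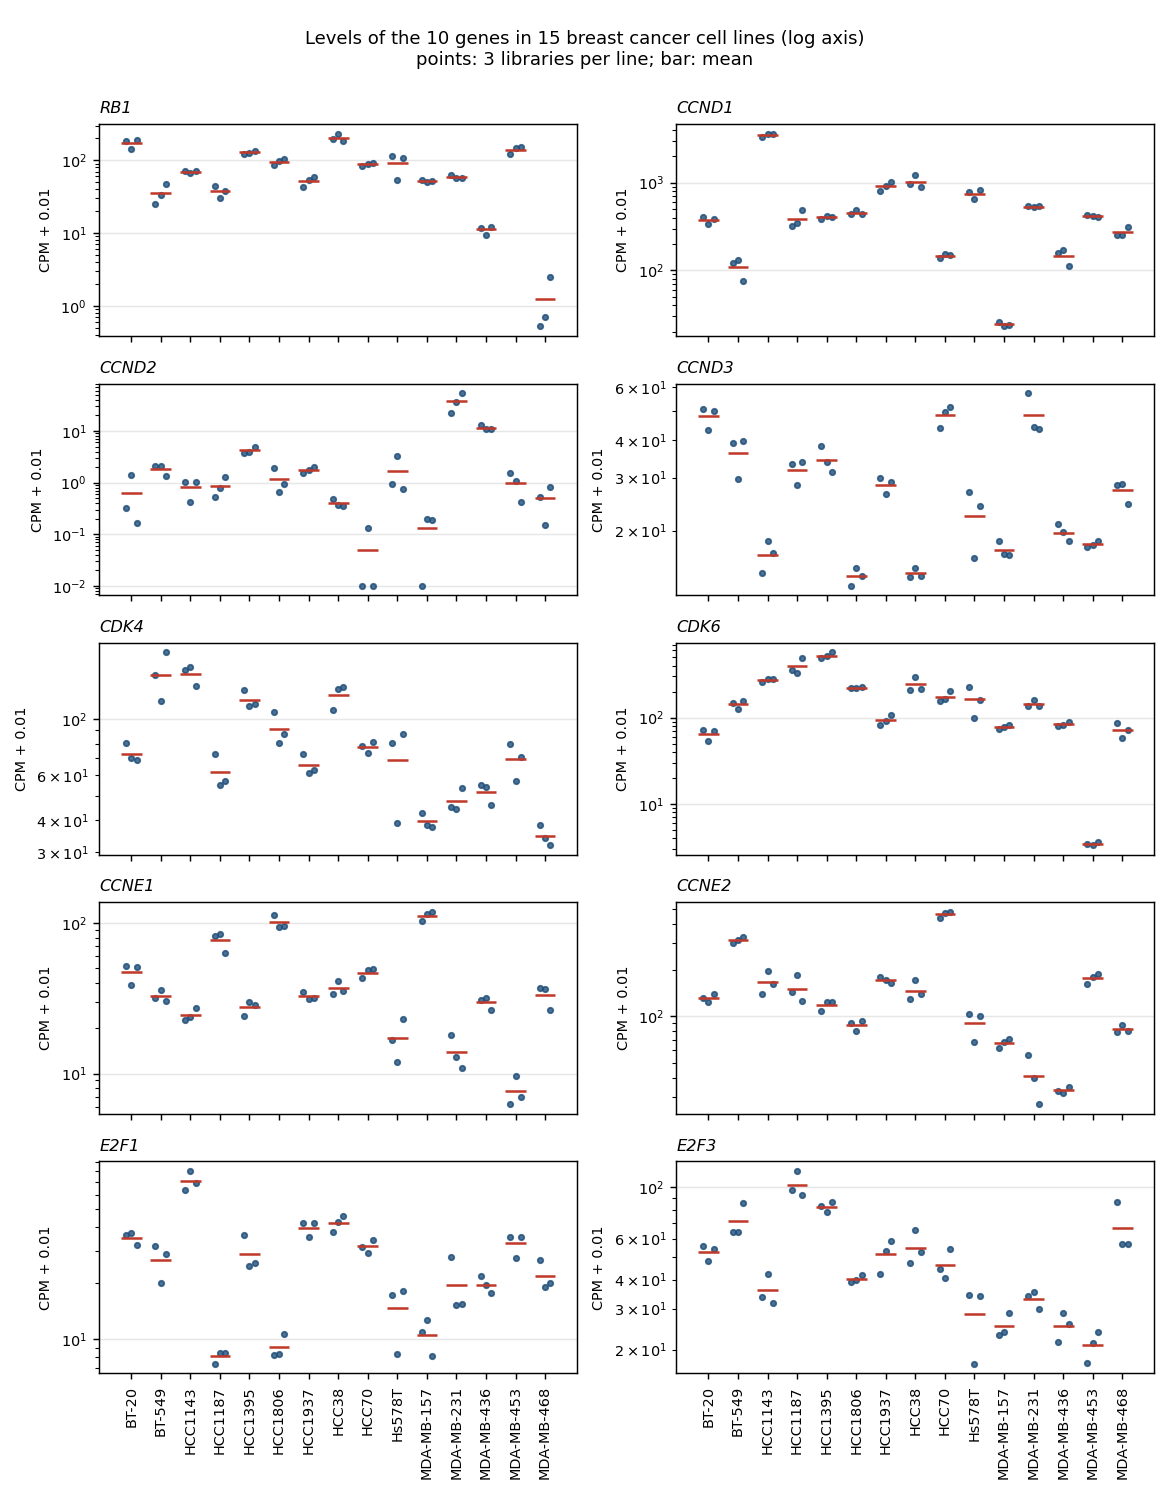
Level of each of the 10 genes in the 15 lines, in CPM with 0.01 added, on a log axis. Points are the 3 libraries of a line and the bar is their mean; RB1 in MDA-MB-468 (mean 1.23 CPM) and CDK6 in MDA-MB-453 (mean 3.42 CPM) lie far below every other line, and CCND1 in HCC1143 (mean 3496 CPM) far above.

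**Figure D2:**
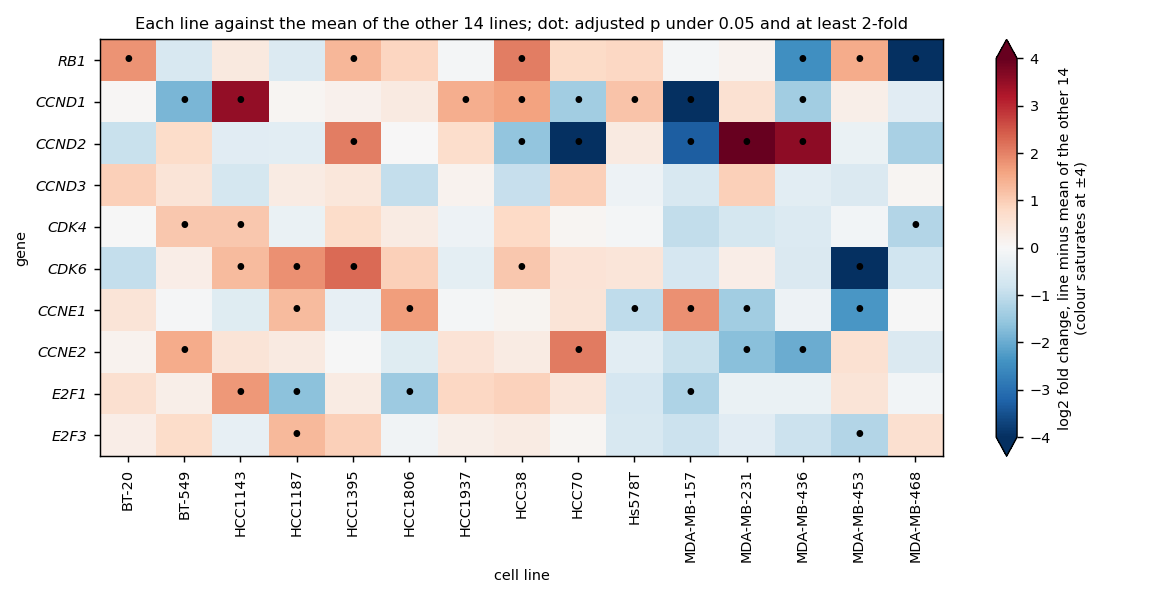
Log2 fold change of each gene (row) in each line (column) against the mean of the other 14 lines, with colour saturating at 4 in either direction. Red stands for higher and blue for lower, and dots mark the 24 calls higher and 20 calls lower; the CCND3 row holds no dot.

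RB1, at chr13:48303726-48599436 on the plus strand (GRCh38, GENCODE 29), encodes the pocket protein that restrains E2F. It was nearly silent in 1 line and low in another. In MDA-MB-468 its libraries held 3, 5 and 15 reads, that is 0.512, 0.692 and 2.48 CPM. In MDA-MB-436 the values were 11.8, 9.52 and 12.2 CPM. The libraries of these 2 lines overlapped neither each other nor any other line: the next line up, BT-549, had 25.3, 33.8 and 47.9 CPM. Against the mean of the other lines, RB1 differed by -5.86 ± 0.28 (SE) on the log2 scale in MDA-MB-468 (edgeR adjusted p = 4.36e-23) and by -2.44 ± 0.19 in MDA-MB-436 (adjusted p = 2.42e-15).

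At the other end RB1 was highest in HCC38, at 199, 231 and 183 CPM, a mean 166-fold above that of MDA-MB-468. BT-20 followed with a mean of 173 ± 24.5 CPM (SD, n = 3), MDA-MB-453 with 140 ± 16.8 and HCC1395 with 128 ± 6.87. Neighbours in this order overlapped in their libraries, and as a group the 4 lines stood above the fifth, HCC1806, at 95.4 ± 8.32 CPM. All 4 were called higher, with log2 differences from 1.33 in HCC1395 to 2.05 in HCC38. The other 9 lines lay between 35.6 and 95.4 CPM and were not called. In Hs578T, RB1 read 115, 53.7 and 107 CPM, and without replicate 2 its log2 difference of 0.83 became 1.10, which passes the threshold. Against the other lines of its own runs alone it was -0.02.

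CCND1, at chr11:69641087-69654474 on the plus strand, encodes cyclin D1, the D cyclin most often gained in breast cancer. HCC1143 stood apart at 3291, 3596 and 3601 CPM, 3.41-fold above the next line by its mean. HCC38 (1026 ± 164 CPM), HCC1937 (916 ± 105) and Hs578T (747 ± 87.3) came next, and their neighbours in the order overlapped. All 4 lines were called higher, with a log2 difference of 3.51 ± 0.08 in HCC1143 (edgeR adjusted p = 2.61e-35). For HCC38 and Hs578T the call depends on the lines compared. Within runs 1 and 2, which hold only these lines with HCC1143 and MDA-MB-231, their differences were -0.12 and -0.73.

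The lowest CCND1 values were those of MDA-MB-157, at 25.9, 23 and 24.2 CPM, 143-fold below HCC1143 and 4.5-fold below the next line. BT-549 followed with 120, 133 and 75.9 CPM, then HCC70 with 147 ± 8.16 and MDA-MB-436 with 147 ± 30.5. The last 2 could not be separated by their libraries. All 4 lines were called lower, MDA-MB-157 by -4.16 ± 0.17 (edgeR adjusted p = 9.23e-26). Within runs 3 to 5 the differences of HCC70 and MDA-MB-436 were -0.79 and -0.78, below the 2-fold threshold. The antisense gene LTO1 covers 10.3% of CCND1 exons, and whether counting used the strand is not given in the sources used here.

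CCND2, at chr12:4273772-4305350 on the plus strand, encodes cyclin D2. Its RNA was scarce in most lines: the table held 1136 reads for it over 45 libraries, against 179669 for CCND1. MDA-MB-231 was highest at 22.2, 36.4 and 54.1 CPM, followed by MDA-MB-436 at 12.9, 10.7 and 11.1 CPM and HCC1395 at 3.8, 3.87 and 4.94 CPM. These 3 lines overlapped neither each other nor any other line, and all were called higher, by 5.41 ± 0.20, 3.59 ± 0.24 and 2.04 ± 0.28 on the log2 scale. The other 12 lines had means of 1.84 CPM or less.

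At the low end CCND2 rested on single reads. HCC70 held 1 read in its 3 libraries and MDA-MB-157 held 2. Relative to the median of the other lines, HCC70 was lower by a ratio of 33.7 with an exact 95% Poisson interval of 6.05 to 1332, and MDA-MB-157 by 7.41 with an interval of 2.05 to 61.2, which cover counting error only. Both were called lower, as was HCC38 with 8 reads. Without replicate 2 of every line the differences of MDA-MB-157 and HCC38 were -3.50 and -1.29, and neither was called. The gene AC008012.1 overlaps 13.8% of CCND2 exons on the same strand and was not analysed here.

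CCND3, at chr6:41934933-42050357 on the minus strand, encodes cyclin D3 and was the steadiest of the 10. Its means ran from 14.1 ± 0.943 CPM in HCC1806 to 48.3 ± 4.01 in HCC70 and 48.3 ± 7.8 in MDA-MB-231, a 3.43-fold range. BT-20, at 48 ± 4.22 CPM, could not be told from these 2 by its libraries. The largest log2 differences, 0.96 in HCC70 and in MDA-MB-231, fell just short of the 2-fold threshold with edgeR adjusted p of 1.42e-12 and 1.11e-11. The difference passed the threshold under 4 alternatives in HCC70 (1.03 to 1.11) and under 7 in MDA-MB-231 (1.01 to 1.45), so the absence of a call there depends on the setting.

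Levels can be set against each other between genes only per length, as CPM per kilobase of exon. On that scale CCND1 made up 62.8% to 99.6% of the summed D cyclin level and led in all 15 lines. In MDA-MB-157, where CCND1 was lowest, CCND3 reached 37% ± 0.735 (SD, n = 3). It reached 22.2% ± 7.41 in BT-549 and 21.5% ± 0.864 in HCC70. CCND2 reached 4.65% ± 0.908 in MDA-MB-436 and 4.21% ± 1.75 in MDA-MB-231 and stayed at 0.874% or less elsewhere. With the longest transcript as the length, the share of CCND3 in MDA-MB-157 became 55.9% and that of CCND1 43.9%, so which of them leads there depends on the gene model.

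**Figure D3:**
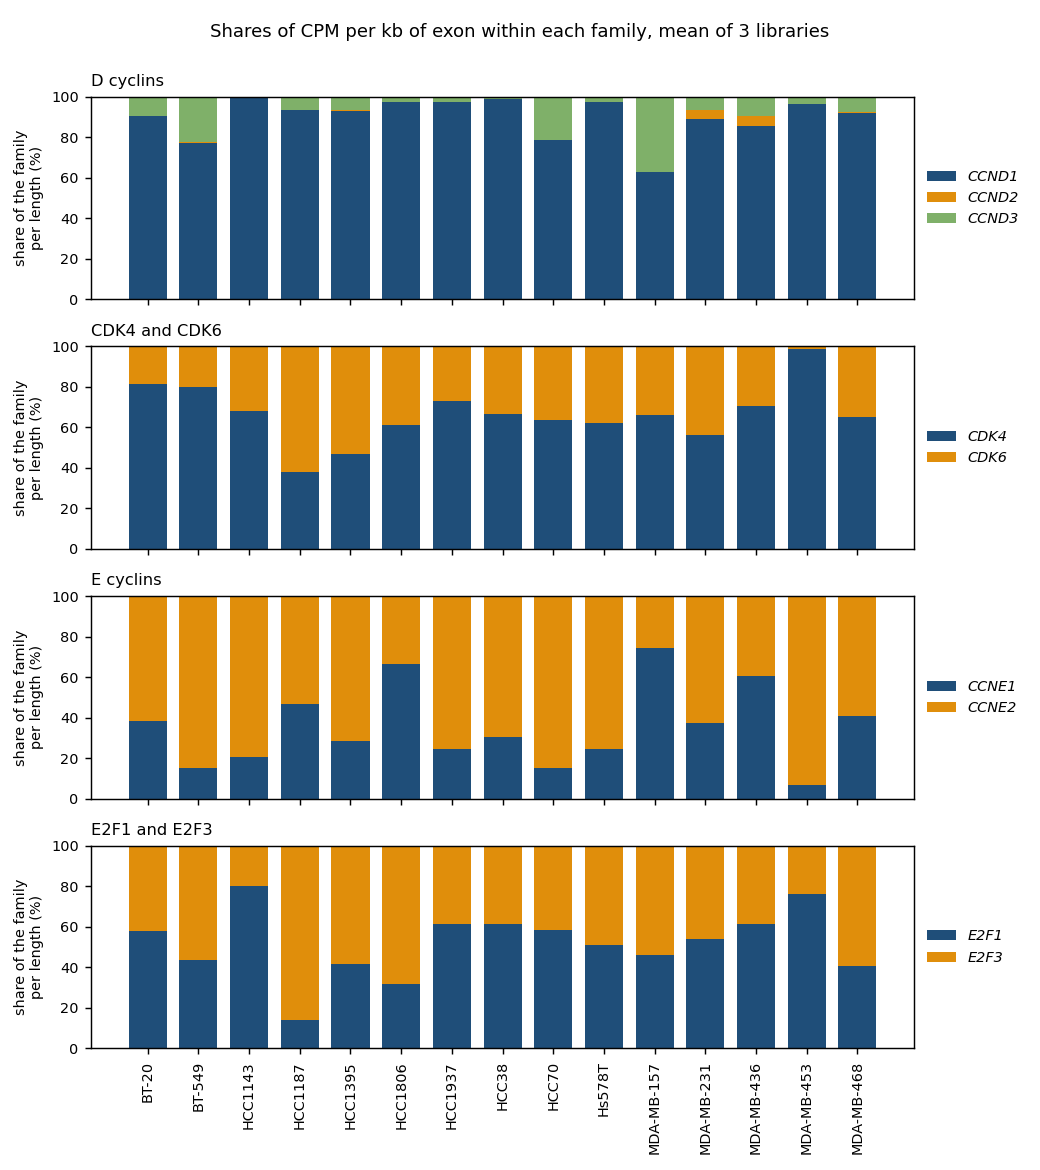
Share of each gene in the summed CPM per kilobase of exon of its family, as a mean of 3 libraries per line, for the D cyclins, CDK4 with CDK6, the E cyclins, and E2F1 with E2F3. CCND1 takes 62.8% to 99.6% of the D cyclin level, CDK4 takes 98.7% of the kinase level in MDA-MB-453, and CCNE1 exceeds CCNE2 in MDA-MB-157, HCC1806 and MDA-MB-436.

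CDK6, at chr7:92604921-92836594 on the minus strand, encodes 1 of the 2 kinases that D cyclins activate. MDA-MB-453 stood alone at 3.4, 3.31 and 3.56 CPM, 18.9-fold below the next line, BT-20, at 71.2, 54.1 and 69.1 CPM. The log2 difference of MDA-MB-453 from the other lines was -5.50 ± 0.22 (edgeR adjusted p = 9.27e-26). HCC1395 was highest at 487, 513 and 569 CPM, 153-fold above MDA-MB-453, and HCC1187 followed at 356, 331 and 491 CPM. These 2 overlapped in their libraries. HCC1143 (273 ± 12.6 CPM) and HCC38 (242 ± 49.7) were also called higher, but within runs 1 and 2 their log2 differences of 1.26 and 1.07 became 0.61 and 0.38. With the sequencing run as a block that of HCC38 was 1.0, just under the threshold, and without its replicate 2 it was 0.88.

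CDK4, at chr12:57747727-57756013 on the minus strand, encodes the other kinase and varied far less. It was highest in HCC1143, at 155, 160 and 135 CPM, and in BT-549, at 148, 117 and 182 CPM, which overlapped each other. HCC38 (124 ± 13.8 CPM) overlapped BT-549 but not HCC1143. It was lowest in MDA-MB-468, at 38.2, 34 and 32 CPM, next to MDA-MB-157 at 39.6 ± 2.73. The log2 differences were 1.09 ± 0.11 in HCC1143, 1.08 ± 0.11 in BT-549 and -1.17 ± 0.14 in MDA-MB-468 (edgeR adjusted p = 1.93e-11, 1.78e-11 and 1.86e-09). With the sequencing run as a block the difference in HCC1143 was 0.89, and without its replicate 3 that in BT-549 was 0.87, so both calls sit at the edge of the threshold. The antisense gene TSPAN31 covers 43.2% of CDK4 exons, so part of these reads may belong to it if strand was not used.

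Per length, CDK4 made up more than 50% of the summed CDK4 and CDK6 level in 13 lines. Its share was 98.7% ± 0.196 in MDA-MB-453, where CDK6 was nearly absent. CDK6 exceeded CDK4 in HCC1187, where CDK4 held 38.1% ± 6.63, and in HCC1395, where it held 46.7% ± 3.69. The libraries of HCC1395 ran from 43.6% to 50.8%. With the longest transcript as the length, HCC1187 alone remained on that side, with CDK4 at 47% ± 7.04 and libraries from 39.4% to 53.4%. Both ranges cross 50%, so which kinase leads was not settled in these cases.

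CCNE1, at chr19:29811898-29824308 on the plus strand, encodes cyclin E1, the partner of CDK2. It was highest in MDA-MB-157, at 103, 115 and 119 CPM, and in HCC1806, at 114, 94.4 and 95.9 CPM, which overlapped. HCC1187 followed at 82.2, 84.1 and 63.7 CPM and stood above BT-20 at 47.3 ± 7.3. The 3 leading lines were called higher by 1.84 ± 0.10, 1.68 ± 0.10 and 1.26 ± 0.11 (edgeR adjusted p = 5.74e-21, 1.64e-19 and 3.84e-14). MDA-MB-453 was lowest at 6.23, 9.57 and 6.99 CPM, with a difference of -2.32 ± 0.16, and MDA-MB-231 at 13.9 ± 3.64 CPM was called lower as well, by -1.38 ± 0.15. Within runs 1 and 2 the latter was -0.86. In Hs578T the call of -1.02 was lost under 8 of 13 alternatives, and without its replicate 2 the difference was -0.85.

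CCNE2, at chr8:94879770-94896678 on the minus strand, encodes cyclin E2. HCC70 was highest at 437, 467 and 477 CPM and BT-549 followed at 300, 315 and 325 CPM. These 2 lines overlapped neither each other nor the rest, and were called higher by 2.08 ± 0.09 and 1.48 ± 0.10 (edgeR adjusted p = 1.86e-24 and 1.08e-17). MDA-MB-436, at 32.7, 31.8 and 34.5 CPM, and MDA-MB-231, at 55.9, 40 and 26.8 CPM, were called lower by -1.99 ± 0.14 and -1.66 ± 0.14, and their libraries overlapped. The antisense gene INTS8 covers 37% of CCNE2 exons and held 69413 reads over all libraries against 47988 for CCNE2. The CCNE2 levels may therefore be affected by INTS8 if strand was not used.

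Per length, CCNE2 made up more than 50% of the E cyclin level in 12 lines, with its highest share of 93.1% in MDA-MB-453. CCNE1 led in MDA-MB-157 at 74.3% ± 0.235, in HCC1806 at 66.4% ± 2.37 and in MDA-MB-436 at 60.7% ± 3.38. In MDA-MB-157 and HCC1806 the CCNE1 level itself was high, whereas in MDA-MB-436 it was unremarkable at 29.7 ± 2.93 CPM and CCNE2 was low. With the longest transcript as the length CCNE1 led in the same 3 lines. These shares carry the limit set by the overlap of INTS8 with CCNE2.

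E2F1, at chr20:33675683-33686404 on the minus strand, encodes an activating E2F factor. HCC1143 stood alone at 63.6, 80.3 and 69.2 CPM, 1.69-fold above HCC38 at 42 ± 4.13, and was called higher by 1.72 ± 0.12 (edgeR adjusted p = 1.34e-16). The low end held HCC1187 at 7.4, 8.47 and 8.43 CPM, HCC1806 at 8.29, 8.33 and 10.7, and MDA-MB-157 at 11, 12.7 and 8.19. These 3 lines, which overlapped, were called lower by -1.64 ± 0.19, -1.44 ± 0.18 and -1.22 ± 0.18. They are also the 3 lines called higher for CCNE1.

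E2F3, at chr6:20401906-20493715 on the plus strand, encodes another activating E2F factor and was called in 2 lines. HCC1187 was highest at 97.2, 117 and 92.4 CPM (log2 difference 1.29 ± 0.11, edgeR adjusted p = 1.29e-13), and HCC1395 followed at 82.4 ± 4.12 without a call. MDA-MB-453 was lowest at 17.6, 21.4 and 23.7 CPM (-1.16 ± 0.15, adjusted p = 5.68e-09), overlapping MDA-MB-157 at 25.3 ± 3.11. Per length, E2F1 held from 14.1% ± 1.52 of the summed E2F1 and E2F3 level in HCC1187 to 80.3% ± 1.31 in HCC1143. By mean share, E2F1 was the larger part in 9 lines and E2F3 in 6, or in 8 and 7 with the longest transcript as the length. By exon length, the libraries lay on both sides of 50% in Hs578T, MDA-MB-231, BT-549 and MDA-MB-157, so the order was not settled there.

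Read by line, the members gave distinct profiles. MDA-MB-453 combined a high RB1 level with the lowest CDK6, CCNE1 and E2F3 of the panel. MDA-MB-468 was called lower for RB1 and CDK4 and for nothing else. MDA-MB-436 was low for RB1, CCND1 and CCNE2 and high for CCND2, and MDA-MB-157 was high for CCNE1 and low for CCND1, CCND2 and E2F1. HCC38, BT-20 and HCC1395 shared a high RB1 level, which in HCC1395 and HCC38 stood beside high CDK6. HCC1937 was called for CCND1 alone and BT-20 for RB1 alone. Some calls behind these profiles depend on the setting. Against the lines of their own runs, CDK6 in HCC38 was at 0.38 and CCND1 in MDA-MB-436 at -0.78, and neither was called. CCND2 in MDA-MB-157 was not called without replicate 2.

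The nearest genes with reads along the chromosome were read in the highest and the lowest line of each member. Of all genes tested, 13.3% to 20.9% were called higher in a single line and 9.19% to 22.9% lower. In MDA-MB-468 the genes within RB1 were low too. LPAR6, a lysophosphatidic acid receptor gene whose span lies inside RB1, had 0 reads, at least 16.8-fold below the median of the other lines (from a floor of 3 reads over the summed libraries). RCBTB2, whose span also lies inside that of RB1, was at 0.697 CPM against a median of 7.39 (log2 difference -3.50 ± 0.27). Of the 7 genes read, 4 were called lower in MDA-MB-468, among them MED4 at 16.1 CPM against 45.1. The call of LPAR6 rests on a fit to 0 reads and that of CYSLTR2 on 9 reads. ITM2B, 33.4 kb before RB1, was not called, at 87.6 against 112. In HCC38, the line with the highest RB1 level, 3 of the 7 were called higher, including RCBTB2 at 21.7 CPM against 5.64. Another was LPAR6, set against a mean that includes the 0 reads of MDA-MB-468. LPAR6 was also at 1.39 CPM or less in BT-20, HCC1143, HCC1187, HCC1395, MDA-MB-231 and MDA-MB-436.

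Beside CCND1 in HCC1143, the overlapping antisense gene LTO1 was at 234 ± 16.7 CPM against a median of 27.6, and MYEOV, 273 kb before CCND1, was at 30.5 ± 5.05 CPM against 0.813. FGF4 was called higher as well, at 1.26 CPM against 0.232, but it was also called higher in MDA-MB-157, the line with the lowest CCND1, at 0.787 CPM. IGHMBP2, 700 kb before CCND1, and ANO1, 424 kb after it, were called lower, so 3 of the 7 neighbours were higher and 2 lower.

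In the same line 6 of the 8 neighbours of CDK4 were called higher. OS9 was at 636 ± 55.3 CPM against 240, B4GALNT1 at 35.8 ± 1.57 against 8.97, and METTL1 at 35.6 ± 6.29 against 12.4. In MDA-MB-468, where CDK4 was lowest, 5 of the 8 were called lower, among them OS9 at 103 CPM and B4GALNT1 at 0.16 CPM. At both ends of the range of CDK4, no neighbour was called in the direction opposite to the member.

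Around CCNE1 in MDA-MB-157, 5 of 6 neighbours were called higher. URI1 was at 503 ± 24.9 CPM against 199, POP4 at 190 ± 10.7 against 77.9 and C19orf12 at 103 ± 7.01 against 32.1. The others called, ZNF536 and TSHZ3, rested on few reads, at 1.53 CPM (26 reads) and 2.11 CPM (36 reads). They lie 404 kb and 1451 kb after CCNE1. PLEKHF1, which lies between C19orf12 and POP4, was at 6.28 ± 1.96 CPM against 14.5 and was not called. Around CCNE2 in MDA-MB-436, 7 of 8 neighbours were called lower, and in HCC70 3 of 8 were called higher. CDK6 in MDA-MB-453 was different: RBM48 and FAM133B on 1 side were not called, at 24.9 CPM against 22.1 and 41.5 against 47.2. SAMD9 on the other side was called lower at 6.8 CPM against 114, but it was also called lower in HCC1395, the line with the highest CDK6, at 28.2 CPM. There 1 of 5 neighbours of CDK6 was called higher and 2 lower. Several other extremes had few neighbours called in the direction of the member. Of 6 neighbours of CCNE1 in MDA-MB-453, its lowest line, none was called. In its highest line CCND3 had 1 of 6 called higher and 2 lower, and in its lowest line CCND1 had 1 of 7 higher and 2 lower. E2F3 had 1 of 6 higher and 1 lower in its lowest line. DNA copy number was not measured, so its part in these levels was not tested.

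**Figure D4:**
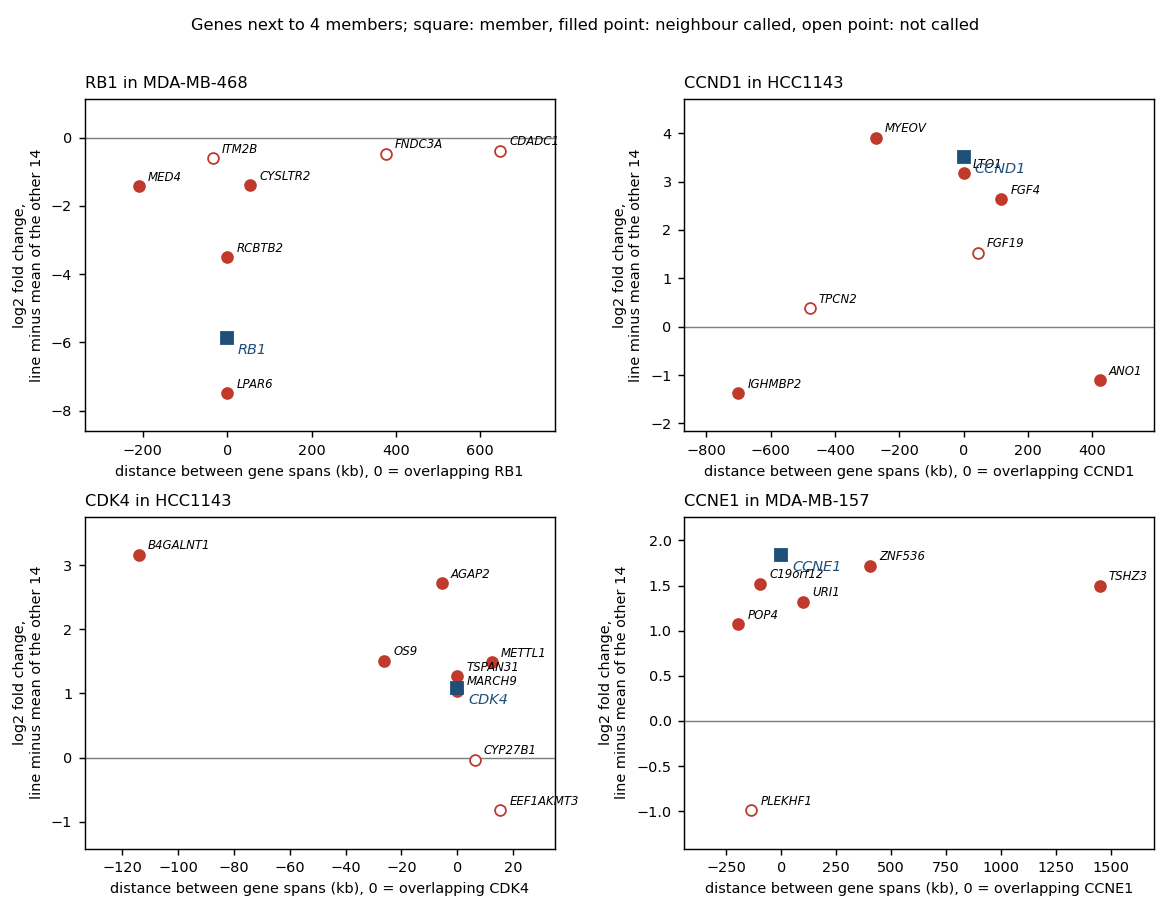
Log2 fold change of a member (square) and of its chromosome neighbours (circles, filled where called) in 1 line against the mean of the other 14, by the distance between gene spans in kb; LPAR6, with 0 reads in MDA-MB-468, stands at a fitted value that is no bound. In MDA-MB-468 4 of 7 neighbours of RB1 are called lower, in HCC1143 3 of 7 neighbours of CCND1 and 6 of 8 of CDK4 are called higher, and in MDA-MB-157 5 of 6 neighbours of CCNE1 are called higher.

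Of the 7 kinase inhibitors 6 could be tested, all 6 differed among lines, and the median SD of their line means was 1.20 beside 0.78 over all genes. CDKN2A, whose products restrain CDK4 and CDK6 and stabilise p53, had 0 reads in HCC38 and in MDA-MB-231, at least 195-fold and 134-fold below the median of the other lines (floor of 3 reads per line). BT-20 held 1 read and HCC1806 held 5. HCC70 was highest at 194 ± 13.8 CPM, followed by BT-549 at 160 ± 41.6 and HCC1937 at 75.4 ± 13.5. CDKN2B, its neighbour on the chromosome, had 0 reads in the same lines, HCC38 and MDA-MB-231, and 7 and 5 reads in BT-20 and HCC1806. A mean of logs over lines is not defined where lines have 0 reads, so no fold change is given for these 2 genes.

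Set beside RB1, the 2 lines with the lowest RB1 held CDKN2A at 35.1 ± 1.65 CPM (MDA-MB-468) and 30.5 ± 1.38 (MDA-MB-436). HCC38 and BT-20, the 2 lines with the highest RB1, held 0 reads and 1 read of it. The slope of CDKN2A on RB1 over all 15 lines was -0.17 ± 0.54 (edgeR adjusted p = 1), so no relation over the panel was found. CDKN2C, which encodes another inhibitor of CDK4 and CDK6, was highest in BT-549 at 270 ± 68.5 CPM.

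CDKN1A, a target of p53 that inhibits CDK2, was highest in MDA-MB-231 at 90 ± 21 CPM and in HCC70 at 84.4 ± 14.1, and lowest in MDA-MB-453 at 2.21 ± 1.24. CDKN1B, another inhibitor of CDK2, was highest in HCC1187 at 268 ± 11 CPM (log2 difference 1.85, edgeR adjusted p = 1.95e-20) and lowest in MDA-MB-157 at 26.4 ± 2.03. HCC1187 and MDA-MB-157 are both among the lines with high CCNE1, the cyclin whose kinase it restrains. CDKN1C had 0 reads in all 45 libraries. How the authors treated reads that align to several places is not given in the sources used here, so this is not read as absence.

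Of the other pocket proteins and of E2F and DP factors, 9 of 10 could be tested and all 9 differed among lines. RBL1, a relative of RB1, was highest in HCC1143 at 365 ± 28.3 CPM, where E2F1 was highest too, and lowest in MDA-MB-436 at 36.1 ± 3.63. E2F7, an E2F repressor, was highest in MDA-MB-231 at 102 ± 17.7 CPM. E2F8, its relative, was highest in HCC1806 at 46.8 ± 7.47. E2F2 held 14 reads over all libraries and was not tested. Of the other kinases and turnover genes, 8 of 9 could be tested and all 8 differed, and SKP2, whose product marks the CDKN1B protein for degradation, ran from 24.1 ± 8.09 CPM in MDA-MB-231 to 306 ± 20.8 in BT-20.

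The 20 S-phase genes, such as the MCM helicase subunits, PCNA and TYMS, are textbook targets of E2F, and all 20 differed among lines. In MDA-MB-157 and MDA-MB-231 10 of the 20 were called lower and none higher, with a median log2 difference of -1.0 and -0.97 beside 0.07 and 0.03 over all genes. In MDA-MB-436 6 were called lower. Of all genes tested, 12.4% were called lower in MDA-MB-157, 10.5% in MDA-MB-231 and 10.9% in MDA-MB-436. In HCC1395 8 of 20 and in HCC1143 4 of 20 were called higher, with medians of 0.73 and 0.55 beside -0.07 and 0.06 over all genes. In HCC1806, where E2F1 was called lower, 4 of 20 were called higher too, with a median of 0.51. HCC70 had 2 of 20 called higher, with a median of 0.57. Of all genes tested, 14.4% were called higher in HCC1395, 18.4% in HCC1143, 15.9% in HCC1806 and 17.7% in HCC70. The counts in HCC1143 and HCC1806 were thus close to the share over all genes, and that in HCC70 was below it. In MDA-MB-468, where RB1 was almost silent, 1 of 20 was called higher and 3 lower, with a median of -0.15 beside 0.03. There 14.7% of all genes tested were called higher and 9.19% lower. The fibroblast markers DCN, LUM, PDGFRA, PDGFRB and COL1A1 summed to 443 to 486 CPM in MDA-MB-157 and to 17.1 to 25.2 CPM in MDA-MB-231. Their sum was 6.71 to 7.93 CPM in MDA-MB-436 and 382 to 1003 CPM in Hs578T. In Hs578T 1 of the 20 S-phase genes was called lower, beside 9.56% of all genes tested. The part of these markers in these results was not tested.

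To ask whether other genes followed RB1 over the panel, reads were summed by line and each gene was regressed on the log2 CPM of RB1 over the 15 line sums. No member was called. CDK4 had the slope largest relative to its SE, a slope of 0.22 ± 0.10 log2 units per log2 unit of RB1 (edgeR adjusted p = 1). The slope was 0.20 ± 0.15 for CCNE2, 0.13 ± 0.12 for E2F1, -0.02 ± 0.10 for E2F3 and 0.04 ± 0.16 for CCNE1, all with adjusted p = 1. Over all genes 0.0413% were called, none rising and 11 falling with RB1, and DESeq2 called 20 and 61. At an unadjusted p under 0.05, 630 of the 26614 genes rose and 462 fell. The 11 falling genes were led by A2M. Without MDA-MB-468, whose RB1 log2 CPM of 0.38 lies far below the 3.40 of MDA-MB-436, none was called. With L-15 as a covariate none was called either, and over the 11 lines of runs 3 to 5 there were 3. None of the tested genes of the 4 pathway lists was called, and 18 of 20 S-phase genes had slopes above 0, with a median of 0.10 beside 0.02 over all genes.

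The title of the series concerns lines with high MYC, the transcription factor that promotes growth, so the members were also regressed on MYC, which ran from 17.8 ± 4.01 CPM in MDA-MB-453 to 200 ± 48.4 in MDA-MB-231. No member was called, against 0.154% of all genes. CCND2 and CDK6 had the steepest slopes, 1.44 ± 0.46 (edgeR adjusted p = 0.446) and 1.37 ± 0.44 (adjusted p = 0.472). Both extremes of MYC are extremes of these genes, since MDA-MB-231 held the most CCND2 and MDA-MB-453 the least CDK6. Without MDA-MB-231 the slope of CCND2 was 0.88, without MDA-MB-453 it was 2.98, and without MDA-MB-453 the slope of CDK6 was 0.79. DESeq2 called CDK6 (1.36, adjusted p = 0.00986), and over the 24 alternatives its adjusted p ran from 0.00986 to 0.999. The slopes of CCNE1, CCNE2, RB1 and E2F1 were -0.16, -0.06, -0.16 and 0.16, none larger than its SE.

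Lines in L-15 were compared with lines in RPMI 1640. The medium cannot be told apart from the origin of the lines, since all 5 L-15 lines come from the MDA-MB series. CDK4 lay between 34.7 and 69.3 CPM in the 5 L-15 lines, with a median of 47.6, and between 61.7 and 150 CPM in the 8 RPMI 1640 lines, with a median of 105. The groups overlapped only through MDA-MB-453 in L-15 and through HCC1187 and HCC1937 in RPMI 1640. The log2 difference was -1.15 ± 0.30 (edgeR adjusted p = 0.28), which was not called, whereas DESeq2 called it at -1.17 (adjusted p = 0.00674). Over all 21 alternatives the estimate ran from -1.32 to -1.01 and the adjusted p from 0.00674 to 0.474.

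The other members were not called either. CDK6 (-1.81 ± 0.64), CCNE2 (-1.40 ± 0.49) and E2F3 (-0.87 ± 0.37) had lower estimates in L-15 and CCND2 a higher one (2.82 ± 1.10), with adjusted p of 0.346, 0.345, 0.403 and 0.374. The CCND2 estimate fell to 1.16 without MDA-MB-231. Estimates were below 0 for 9 of the 10 members, with a median of -0.85 beside -0.03 over all genes. All 20 S-phase genes had estimates below 0, with a median of -1.03, and none was called. Of all genes tested, 0% were called by edgeR, with 1195 higher and 1149 lower in L-15 at an unadjusted p under 0.05, and DESeq2 called 163 higher and 244 lower. The epithelial markers also had estimates below 0 for 5 of 5, with a median of -0.99. Estimates were above 0 for 4 of the 5 fibroblast markers, with a median of 1.59, and for 4 of the 5 mesenchymal markers, with a median of 0.36. The part of these markers in the values was not tested.

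**Figure D5:**
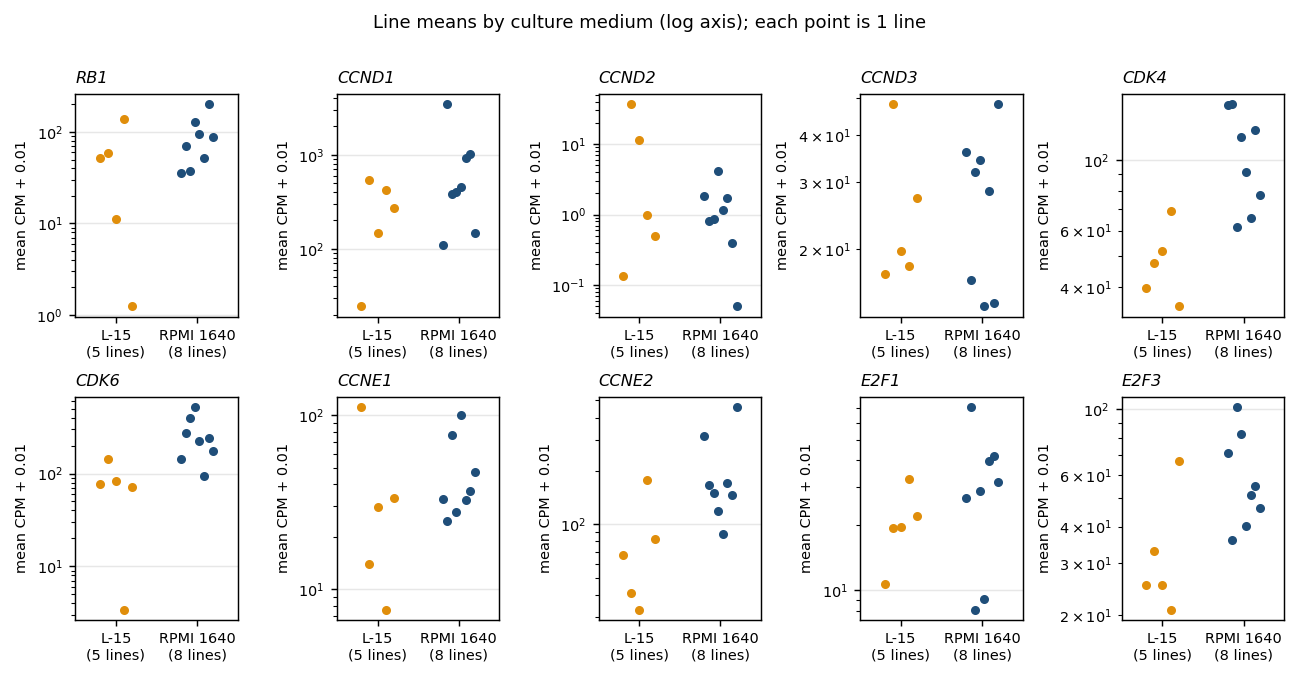
Mean CPM with 0.01 added, on a log axis, of each of the 10 genes in the 5 lines grown in L-15 and the 8 grown in RPMI 1640, with 1 point per line. CDK4 lies between 34.7 and 69.3 CPM in L-15 and between 61.7 and 150 CPM in RPMI 1640; CDK6 in MDA-MB-453 is the lone low point of its panel.

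Among themselves the members were only loosely related over the 15 lines. Pearson's r of log2 CPM over the 45 pairs of members ran from -0.60 to 0.59, as a description without a test, and the line means share libraries and runs. The highest was CDK6 with E2F3, which became 0.31 once the 2 lines most distant from the CDK6 median were left out. CDK4 with CCNE2 followed at 0.57, with 0.47 without the 2 lines farthest in CDK4. The lowest, CCND2 with CCNE2, became -0.07 in the same way. For E2F1 with E2F3 r was 0.00, and 0.34 without the 2 lines farthest in E2F1. For CCNE1 with CCNE2 it was 0.04, and 0.33 without the 2 lines farthest in CCNE1.

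For each member the protein-coding genes with the most similar pattern over the 15 lines were listed by Pearson's r of log2 CPM among 11854 genes. RB1 was most like NUDT16L1 (0.86) and EIF4G3 (0.83) and most opposite to CCNB1IP1 (-0.89) and C1orf109 (-0.85). CDK6 was most like MSN and TUBB6 (both 0.89), CDK4 like IFT88 (0.90) and CDKN2AIPNL (0.87), and E2F3 like PNN (0.88) and ELAVL1 (0.85). CCNE2 was most like NDUFAF6 (0.89), whose span overlaps that of CCNE2. CCND1 was most like PDRG1 (0.80), CCND2 like RBPJ (0.84), CCND3 like SSBP1 (0.83), CCNE1 like MED13L (0.85) and E2F1 like HDDC3 (0.85). The best of so many genes over 15 lines is high by selection, and these values are descriptions. They also include lines far from the rest, and were not recomputed without them. For RB1, MDA-MB-468 lay at 0.39 log2 CPM beside 3.51 in the next line, MDA-MB-436. For CDK6, MDA-MB-453 lay at 1.90 beside 6.01 in BT-20.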

How the data were processed

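The 45 libraries were made from 1000 ng of total RNA with Ribo-Zero Gold and ScriptSeq v2, per the labels' protocols. Per the submitters' processing notes, bcl2fastq 2.20.0.422, FastQC, MultiQC, Trimmomatic, STAR, featureCounts and the build GRCh38.p12 were used. For the annotation, the strand setting and multi-mapping reads, the choices were not given in the sources used here. Raw counts per gene are what the authors deposited. Identifiers were matched to GENCODE 29 for 58275 of 64485 genes (90.4%).

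From these counts, TMM-scaled CPM were derived (edgeR 4.0.16 under R 4.3.3; log2 CPM with a prior count of 2). Genes were kept by filterByExpr (minimum count 10, minimum total 15). Tests are two-sided edgeR quasi-likelihood F tests with Benjamini-Hochberg correction over all genes tested, over 45 libraries for lines and over line sums for slopes and medium. The comparison by medium omits Hs578T and BT-20, each the sole line in its medium. The common coefficient of variation between replicates was 0.153. The SE is the absolute estimate divided by the square root of F. The fits were tested on simulated data. The named genes are the 10 members, 4 pathway lists, marker lists, the nearest genes with reads (some are not reported here), and the genes most alike in pattern. Members and lists were chosen with earlier results of these data known. The alternatives cover scaling, filters, DESeq2, blocks and omissions.

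Replicate numbers equal the sequencing run in 11 lines, per the labels, so they pair libraries by run. Same-numbered libraries of these lines deviated together only weakly, with median correlations of 0.08, 0.05 and 0.01 over genes.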

Additional observations from a re-analysis of the deposited data

Results flagged for a closer look

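CDK6 in MDA-MB-453, at 1.90 log2 CPM, lay far below the other 4 lines grown in L-15, of which MDA-MB-468 was the next. The gap took up more of the range of the 5 lines than Dixon's criterion allows at the 95% level. Levels of the 10 genes in the lines of either medium gave 20 such groups, and chance alone marks about 1 in 20.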

How the results depend on the processing

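Of the 44 calls of a member in a line, 32 were kept under every alternative run, 12 were lost under at least 1 and 2 of these reversed. Over the alternatives 22 to 30 tests of a member were called higher and 18 to 22 lower. Against the lines of their own runs, CCND1 was at -0.12 in HCC38, -0.73 in Hs578T and -1.38 in MDA-MB-231, and RB1 at -0.02 in Hs578T. Without 1 replicate CCND2 in HCC1143 ran from -0.67 to 0.07 (without replicate 2). Without a filter on low counts 80107 tests over all genes were called higher. That fit took in the 55100 genes with a count in place of 20587. The count therefore cannot be set beside that of the main fit. Other scalings shifted the median gene by over 0.1 (log2) in HCC70 (-0.20), MDA-MB-157 (0.19), Hs578T (0.18) and HCC1143 (0.12). The longest transcript as length moved 78 of 135 family shares by more than 1 SD, and CPM without TMM moved 35 of 150 means. In each of these the cause was not tested.

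With replicate number as a block, 20238 genes differed among lines, 50146 tests were called higher and 38860 lower, and members were called higher in 24 and lower in 20. With the sequencing run as the replicate block these were 20233, 50479, 39717, 22 and 20. The block changed no other call of a member than those of CDK4 in HCC1143 and CDK6 in HCC38.

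For the slope on MYC, genes rising and falling numbered 126 and 138 with DESeq2, 6 and 70 without a filter, 0 and 18 over the 11 lines of runs 3 to 5, and 0 and 0 with L-15 as a covariate. With the intercept-only filter 0 rose. Without 1 replicate they ranged from 0 to 1 and from 22 to 47, and without 1 line from 0 to 1 and from 0 (without MDA-MB-453) to 50, with 26 without BT-549. For the slope on RB1 they numbered 20 and 61 with DESeq2 and 4 and 21 without a filter, and 3 fell with the intercept-only filter, 3 over 11 lines and 0 with L-15 as a covariate. Without 1 replicate 5 to 12 fell, and without 1 line 0 to 1 rose and 0 (without MDA-MB-468) to 16 fell, with 4 to 6 without BT-549, HCC1143, HCC1395, HCC38, Hs578T or MDA-MB-231. By medium DESeq2 called 163 and 244.

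Members with uncalled estimates near 0 changed sign. For MYC, CCNE1 was at 0.08 over 11 lines, 0.59 without MDA-MB-157 and 0.03 without MDA-MB-231, with a lowest value of -0.77 without 1 line. CCNE2 was at 0.02 without a filter and at 0.08 over 11 lines, without HCC70 and without MDA-MB-231, with a lowest of -0.26 without 1 line and of -0.52 with L-15 as a covariate, and E2F1 at -0.01 with L-15 as a covariate. For RB1 with that covariate, CCND2 was at 0.40, CCNE1 at -0.01 and CDK6 at -0.03. Leaving out 1 line gave CCND2 -0.98 (MDA-MB-468) to 0.03 (MDA-MB-436), CCND3 -0.01 (BT-20), CCNE1 -0.02 (HCC1806) and -0.03 (MDA-MB-468), and E2F3 -0.07 to 0.00 (MDA-MB-453) and 0.09 (MDA-MB-468). By medium CCND3 was at 0.03 with the intercept-only filter and ran from -0.52 to 0.04 (without HCC70) when 1 line was left out. Depth limits CCND2 most, with 1 to 24 reads per line in 10 lines.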
